A study of Mus musculus with 9 samples.

Results

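Extracellular matrix, podosome and wound response genes were examined in mouse pancreatic islets exposed to inflammatory cytokines, with and without nanoparticles. The set held 40 genes, matched by symbol, of 56748 in the deposited table: collagens, laminins and other matrix glycoproteins, matrix metalloproteinases and their inhibitors, collagen crosslinkers, the plasminogen activation system, integrins, a podosome scaffold, vimentin and 2 genes of TGF-beta signalling. All 40 were found, and 39 passed the filter on low counts. Thbs2, an angiogenesis inhibitor of the thrombospondin family, had 0 to 15 counts per library and was not tested. Total RNA of primary islets from wt C57bl/6 mice was sequenced in 9 libraries that form 3 groups of 3. Control islets received no treatment, and no time in culture is recorded for them here. Cytokine exposure and time in culture can therefore not be told apart in the comparisons with control. Inflamed islets were kept for 48 hours with an inflammatory cocktail of interleukin-6, tumour necrosis factor alpha and interleukin-1 beta. Particle islets received the cocktail with polydopamine-coated mesoporous silica nanoparticles (PD-G-MSNPs), also for 48 hours. All 3 groups share strain and genotype, no particle-only group was analysed here, and whole islets hold stromal, vascular and immune cells beside endocrine cells.

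The islet matrix consists of a basement membrane of collagen IV and laminins around the capillaries and of interstitial fibrillar collagens, made largely by pericytes, stellate cells and endothelium. Matrix metalloproteinases and the urokinase system cut this matrix, TIMP proteins inhibit the metalloproteinases, and integrins bind cells to what remains. Podosomes are actin-rich adhesions of macrophages and other migrating cells at which proteases are delivered to the matrix.

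Library totals lay between 17832949 and 55865759 counts. All 8 beta cell markers examined were detected in each group, with sums of 316000 to 333000 CPM (counts relative to library size, scaled by TMM factors) in control, 116000 to 221000 CPM in inflamed and 75500 to 223000 CPM in particle libraries. Of these 8 markers, 7 fell in inflamed against control islets (median log2 fold change -3.62), where 19.0% of all tested genes were called lower. In particle against inflamed islets 5 were higher at an unadjusted p under 0.05, beside 1655 of 17276 tested genes, with 0 called. For 3 of the 8 all particle libraries lay above all inflamed libraries. Particle replicate 2 was the highest of its group for each marker, as for G6pc2 at 53.0, 624 and 7.93 CPM in the particle libraries. The part of the beta cell share in the values of the matrix genes was not tested. Insulin transcripts took 8.55% to 29.2% of the counts of a library. Summed over 18 macrophage markers, the level was 363 to 466 CPM in control, 1350 to 1540 CPM in inflamed and 445 to 728 CPM in particle libraries, with no marker at 0 in any group. The sum over 18 stellate, pericyte and fibroblast markers was 103 to 137, 20.5 to 38.3 and 14.6 to 64.7 CPM in the same order, with Lrat at 0 in control and Lrat and Higd1b at 0 in inflamed islets. The sum over 16 endothelial markers was 39.4 to 104, 7.72 to 16.3 and 8.17 to 41.1 CPM, with Cldn5 at 0 in inflamed islets. Neutrophil markers summed to 0.537 to 1.24, 7.11 to 11.3 and 1.41 to 6.58 CPM, and Mpo and Cxcr2 were at 0 in every library. The sums over 12 acinar markers were uneven within each group, at 24.7 to 1540, 29.4 to 2730 and 6.45 to 3530 CPM. In bulk libraries, fewer cells of a type and less RNA per cell cannot be told apart.

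Single libraries stood apart for the matrix genes. Control replicate 2 had the highest value of its group for 38 of the 39 tested members, and inflamed replicate 2 had the lowest value of its group for 34 of the 39. Such ranks were not counted over all tested genes, so whether they are particular to matrix genes was not tested. Control replicate 2 had the highest endothelial (104 CPM against 51.6 and 39.4) and acinar sums (1540 against 24.7 and 206) of its group. Its beta cell sum was the lowest at 316000 CPM, and its stellate sum was 132 CPM against 137 and 103. Ins1 and Ins2 made up nearly all of that beta cell sum. Mafa, Pdx1, Nkx6-1, Slc2a2, Slc30a8 and G6pc2 were each highest in control replicate 2. Among the stellate markers Mgp, Cspg4 and Pi16 were highest in control replicate 1. Mgp alone was at 52.9 CPM there against 30.6 CPM in replicate 2. Lrat was at 0, and the other stellate markers were highest in control replicate 2. For all 8 chains of fibrillar collagen and collagen VI, the highest control was replicate 2, the lowest inflamed library replicate 2 and the highest particle library replicate 2. Particle replicate 2 also stood apart in its marker sums, as the highest of its group for beta cell (223000 CPM against 75500 and 141000), acinar (3530 against 6.45 and 235), stellate and endothelial markers.

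To define the cytokine response of these genes, inflamed islets were compared with control islets. Matrix-degrading enzymes, the urokinase system, the integrin chains Itga5 and Itgav, the podosome scaffold, Tgfb1 and Acvrl1 rose, while Col6a2, Col6a3, Col4a1 and the crosslinker Loxl2 fell. Of the 39 tested members, 16 rose and 4 fell (edgeR's quasi-likelihood test, Benjamini-Hochberg adjusted p under 0.05), against a background of 20.7% of 17276 tested genes called higher and 19.0% called lower. Calls in either direction took in 20 members, beside 39.6% of all genes, and 22 members had an unadjusted p under 0.05, beside 49.1%. All inflamed libraries lay above all controls for 16 members (28.3% of all genes) and below them for 6 (28.5%). The median log2 fold change was 0.40 over the members and 0.05 over all tested genes. Members and gene lists were chosen with earlier results of these data known, so such shares describe the set and do not test it. The 4 members called lower became 2 without control replicate 1 or inflamed replicate 1 or 3, and 1 without control replicate 2 or 3 or inflamed replicate 2. By role, 5 of 6 metalloproteinases, both urokinase genes, 2 of 3 integrin chains, both podosome and cytoskeleton genes and both TGF-beta members rose, and 2 of 3 collagen VI chains fell. No fibrillar collagen was called in either direction by this test, whereas other fits called Col3a1 and Col1a2 lower, as given with these genes.

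**Figure D1:**
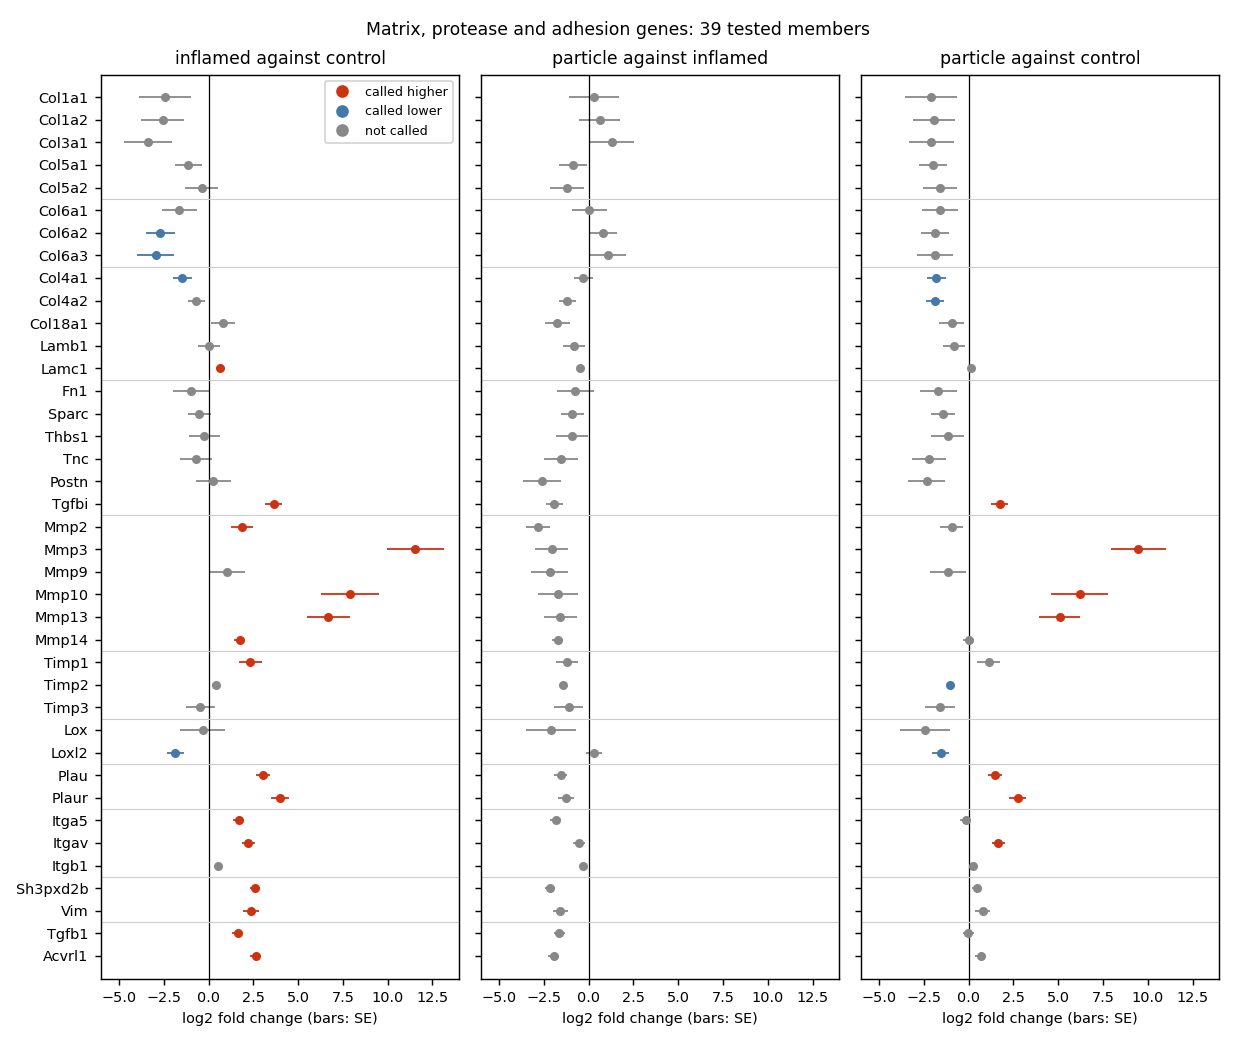
Log2 fold changes of the 39 tested members in the 3 comparisons, by role, with the standard error as a bar and colour for the call. Metalloproteinase genes reach 11.55 in inflamed against control islets, and 32 of 39 members lie below 0 in particle against inflamed islets, where no member was called.

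The stromelysins and collagenase 3 had the largest changes of the set. Mmp3, stromelysin-1, cuts matrix proteins and activates other metalloproteinases (ENSMUSG00000043613, GRCm39 chromosome 9 from 7445822 to 7455975). Mmp3 was at 0.0413, 0.0920 and 0 CPM in the control libraries, at 154, 35.8 and 221 CPM in the inflamed libraries and at 33.5, 3.98 and 60.4 CPM in the particle libraries. The control libraries held 3 counts of Mmp3 in all against 16005 in the inflamed libraries, a pooled ratio of 4050 with an exact 95% counting interval of 1390 to 19700. All inflamed libraries lay above all controls, and the fitted log2 fold change was 11.55 (standard error 1.59, adjusted p = 0.00101). Mmp10, stromelysin-2 (chromosome 9 from 7502353 to 7510241), was at 0, 0.184 and 0.0718 CPM in control, 34.2, 5.41 and 22.3 CPM in inflamed and 5.91, 0.161 and 12.9 CPM in particle libraries. The groups of control and inflamed libraries did not overlap (log2 fold change 7.90 with an SE of 1.62, adjusted p = 0.00525), while particle replicate 2 lay within the range of the controls. Mmp13, which cuts fibrillar collagen (chromosome 9 from 7272514 to 7283331), was at 0.248, 1.56 and 0.718 CPM in control, 105.8, 27.3 and 123 CPM in inflamed and 23.0, 3.70 and 58.15 CPM in particle libraries. Mmp13 rose with a log2 fold change of 6.68 (standard error 1.21, adjusted p = 0.00337). For all 3 genes the lowest inflamed library was replicate 2 and the lowest particle library was replicate 2. With limma-voom the adjusted p was 0.161 for Mmp3, 0.175 for Mmp10 and 0.0505 for Mmp13. Mmp3 and Mmp10 are close paralogs, and how counting divided reads between them is uncertain.

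Promoter sequence upstream of the most changed members is printed to show the letters these genes share next to their starts. The 6 largest changes among called members were those of Mmp3, Mmp10, Mmp13, Plaur, Tgfbi and Plau, and 5 of them had an entry in the RefSeq promoter table (GRCm38.p6, where 29 of the 40 members matched by symbol). The 120 bases before the annotated start are given 5′ to 3′, on the plus strand of that build, at chr9:7445702-7445821 (Mmp3), chr9:7502222-7502341 (Mmp10), chr9:7272394-7272513 (Mmp13), chr7:24462363-24462482 (Plaur) and chr13:56609466-56609585 (Tgfbi). Capitals mark matches to the AP-1 letters TGAGTCA or TGACTCA and to TATAAA, searched on both strands.
Mmp3: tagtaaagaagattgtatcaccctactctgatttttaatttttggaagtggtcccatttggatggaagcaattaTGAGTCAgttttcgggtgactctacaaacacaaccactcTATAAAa
Mmp10: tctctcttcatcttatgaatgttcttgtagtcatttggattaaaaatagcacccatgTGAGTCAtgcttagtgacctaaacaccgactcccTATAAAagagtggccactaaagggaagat
Mmp13: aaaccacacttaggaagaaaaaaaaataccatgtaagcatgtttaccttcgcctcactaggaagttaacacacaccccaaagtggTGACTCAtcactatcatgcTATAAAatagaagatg
Plaur: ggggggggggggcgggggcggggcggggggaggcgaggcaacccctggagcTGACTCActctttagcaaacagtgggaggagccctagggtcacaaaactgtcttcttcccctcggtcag
Tgfbi: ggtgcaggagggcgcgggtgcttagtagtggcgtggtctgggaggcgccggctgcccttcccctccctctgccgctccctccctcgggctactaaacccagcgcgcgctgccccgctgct

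The 3 metalloproteinase promoters held an AP-1 match followed by a TATAAA match, the AP-1 match of Plaur had no TATAAA beside it, and Tgfbi held neither. The AP-1 match began 46 bases before the annotated start in Mmp3 (position -46), at -63 in Mmp10, at -35 in Mmp13 and at -69 in Plaur. In the 250 bases before the start, AP-1 letters were found in 5 of the 29 members with a promoter (17.2%: Mmp3, Mmp10, Mmp13, Plaur and Col6a1), against 5.16% of 27025 genes. Of the 12 members with a promoter that rose under cytokines, 4 held them, and of the other 17 members 1 did. TATAAA was in 27.6% of the members' promoters and in 14.3% of all, and an NF-kB pattern (GGG and CC with 5 bases of any kind between them) in 69.0% of the members' and 48.7% of all. The NF-kB pattern was in 58.3% of the members that rose and in 76.5% of the others, and TATAAA in 33.3% and 23.5%. In Plaur 2 overlapping NF-kB matches lay between the AP-1 match and the start, and no match to that pattern overlapped an AP-1 match in the 5 printed promoters. A match is a description of letters, and no binding was measured.

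Mmp13, Mmp3 and Mmp10 lie in a cluster of metalloproteinase genes on chromosome 9. The 10 Mmp genes there span 427.1 kb, and 4 of them (Mmp1a, Mmp1b, Mmp20 and Mmp27) had under 50 counts over all 9 libraries. Mmp12, macrophage elastase, lies between Mmp13 and Mmp3 and was at 10.03, 18.6 and 6.49 CPM in control, 136, 114 and 147 CPM in inflamed and 65.4, 40.9 and 65.25 CPM in particle libraries (log2 fold change under cytokines 3.5 with an SE of 0.368, adjusted p = 7.4e-05). Mmp12 varied less between inflamed libraries than Mmp13 and Mmp3, whose lowest value, in replicate 2, was far below the others. Mmp7, matrilysin, at the far end of the cluster, had means of 1.24 ± 1.18 CPM (SD, n = 3) in control, 7.18 ± 4.55 CPM in inflamed and 7.11 ± 4.68 CPM in particle islets, with groups that overlapped. Mmp8, neutrophil collagenase, had means of 0.133 ± 0.164, 1.53 ± 1.45 and 0.405 ± 0.556 CPM.

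**Figure D2:**
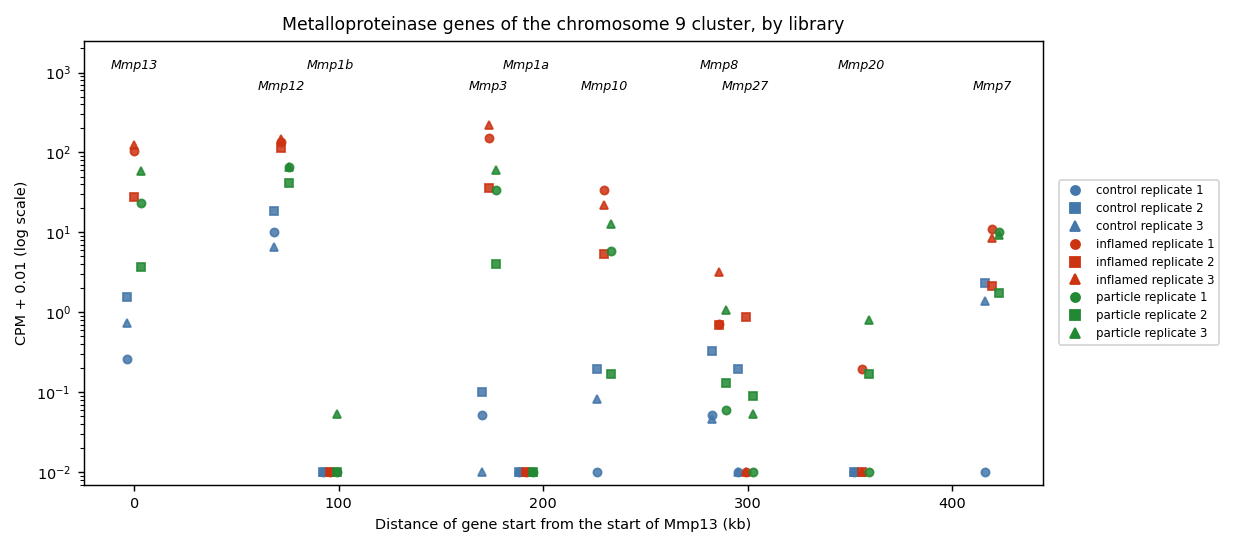
CPM + 0.01 on a log axis for the 10 metalloproteinase genes of the chromosome 9 cluster, at the distance of each gene start from that of Mmp13, with 1 point per library. Mmp3 goes from at most 0.0920 CPM in control to 35.8 to 221 CPM in inflamed libraries, while Mmp1a and Mmp1b stay at or near 0 throughout.

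The other metalloproteinases changed less. Mmp14, a membrane-bound enzyme that activates pro-MMP2 (chromosome 14 from 54669069 to 54682821), was at 11.1, 28.65 and 20.45 CPM in control, 70.8, 50.2 and 78.4 CPM in inflamed and 20.6, 16.3 and 23.2 CPM in particle libraries. Mmp14 rose with a log2 fold change of 1.73 (standard error 0.321, adjusted p = 0.00202), and every inflamed library lay above every control. Mmp2, gelatinase A, was at 0.702, 3.04 and 2.01 CPM in control and 9.25, 2.11 and 9.40 CPM in inflamed libraries (log2 fold change 1.86 with an SE of 0.627, adjusted p = 0.0359), with inflamed replicate 2 inside the range of the controls. That call was lost without control replicate 1 (adjusted p = 0.117), control replicate 3 (0.101), inflamed replicate 1 (0.114) or inflamed replicate 3 (0.111). Mmp9, gelatinase B, was not called at 1.16, 10.4 and 1.90 CPM in control and 15.8, 0.963 and 10.5 CPM in inflamed libraries (log2 fold change 1.02 with an SE of 0.989, adjusted p = 0.437). Gelatinase B is made by neutrophils and macrophages among other cells, and its groups overlapped.

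**Figure D3:**
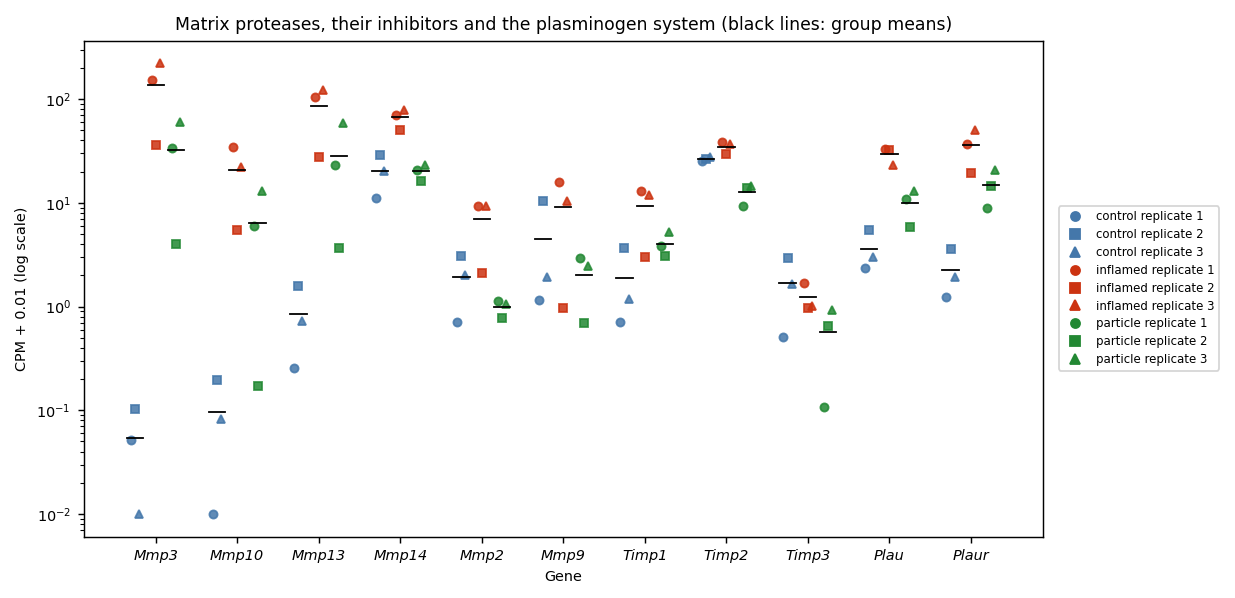
CPM + 0.01 on a log axis for metalloproteinases, their inhibitors and the urokinase genes, with 1 point per library and the group mean as a black line. Mmp3, Mmp10, Mmp13, Mmp14, Timp2, Plau and Plaur show control and inflamed libraries that do not overlap. Timp2 is lowest in the particle libraries at 9.35 to 14.7 CPM.

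Of the inhibitors, Timp1 rose and the others were not called. Timp1 was at 0.702, 3.68 and 1.18 CPM in control and 13.0, 2.98 and 11.9 CPM in inflamed libraries (log2 fold change 2.33 with an SE of 0.662, adjusted p = 0.0168), and inflamed replicate 2 lay below control replicate 2. The call was lost without control replicate 1 (adjusted p = 0.0594), control replicate 3 (0.076), inflamed replicate 1 (0.0604) or inflamed replicate 3 (0.0518). Timp1 lies inside Syn1 on the opposite strand, whose mean level was 104 CPM, and its counts are uncertain because the strand setting of the counting is not known here. Timp2, which inhibits metalloproteinases and takes part in the activation of MMP2, was at 25.5, 26.35 and 27.3 CPM in control and 38.6, 29.3 and 36.55 CPM in inflamed libraries, without overlap (log2 fold change 0.40 with an SE of 0.212, adjusted p = 0.154). Timp3, a matrix-bound inhibitor that overlaps Syn3, was at 1.68 ± 1.20 CPM against 1.21 ± 0.40 CPM (adjusted p = 0.666).

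Both genes of plasminogen activation rose. Plau, the urokinase-type plasminogen activator (chromosome 14 from 20886728 to 20893453), was at 2.35, 5.43 and 2.98 CPM in control, 33.0, 32.05 and 22.9 CPM in inflamed and 10.8, 5.79 and 13.0 CPM in particle libraries. Its log2 fold change under cytokines was 3.03 (standard error 0.388, adjusted p = 2.76e-04), and the controls lay below all other libraries. Plaur, the urokinase receptor that holds the enzyme at the cell surface (chromosome 7 from 24161909 to 24175393), was at 1.24, 3.54 and 1.94 CPM in control, 36.9, 19.6 and 50.7 CPM in inflamed and 8.91, 14.5 and 20.9 CPM in particle libraries. Plaur rose with a log2 fold change of 4.0 (standard error 0.493, adjusted p = 2.23e-04). Unlike the stromelysins, Plau was as high in inflamed replicate 2 as in replicate 1.

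For Sh3pxd2b, Itgav, Itga5, Vim, Tgfb1, Acvrl1 and Tgfbi, which all rose, every inflamed library lay above every control. Sh3pxd2b encodes TKS4, a scaffold required for podosomes and for pericellular matrix degradation (chromosome 11 from 32297820 to 32378173). Sh3pxd2b was at 3.47, 5.66 and 4.70 CPM in control, 21.8, 27.6 and 34.6 CPM in inflamed and 6.25, 4.98 and 7.72 CPM in particle libraries, with a log2 fold change under cytokines of 2.6 (standard error 0.289, adjusted p = 1.08e-04). Itgav, the integrin alpha-v chain that binds vitronectin and activates latent TGF-beta, was at 50.7, 50.9 and 47.0 CPM in control and 311, 208 and 174 CPM in inflamed libraries (log2 fold change 2.22 with an SE of 0.345, adjusted p = 8.13e-04). The controls of Itgav differed little from each other, and every inflamed library lay far above them. Itga5, the alpha chain of the fibronectin receptor, rose from 7.69 ± 2.001 to 24.6 ± 7.42 CPM (SD, n = 3, log2 fold change 1.68, adjusted p = 0.00151). Itgb1, the common beta chain, had a mean of 140 ± 19.75 CPM in inflamed and 98.04 ± 10.4 CPM in control islets and did not pass (adjusted p = 0.0631, log2 fold change 0.52), though its groups did not overlap. Without inflamed replicate 2 or particle replicate 3 the adjusted p of Itgb1 was 0.0481 and 0.0436.

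Vim, the intermediate filament of mesenchymal cells and leukocytes, was at 17.6, 53.95 and 25.2 CPM in control and 141, 136 and 221 CPM in inflamed libraries (log2 fold change 2.36 with an SE of 0.431, adjusted p = 0.00189). Vim thus rose in inflamed replicate 2 as well, in which fibrillar collagens were lowest. Tgfb1, the ligand TGF-beta 1 (chromosome 7 from 25386427 to 25404502), was at 13.8, 17.75 and 10.4 CPM in control and 44.2, 30.3 and 54.8 CPM in inflamed libraries (log2 fold change 1.63 with an SE of 0.298, adjusted p = 0.0019). Acvrl1, which encodes ALK1, a type I receptor for BMP9 and BMP10 best known from endothelium, was at 3.47, 5.01 and 3.23 CPM in control and 25.8, 16.8 and 29.5 CPM in inflamed libraries (log2 fold change 2.63 with an SE of 0.320, adjusted p = 2.1e-04). In the same libraries 9 of 15 tested endothelial markers fell and none rose, beside 19.0% and 20.7% of all tested genes. The part of endothelium in the level of Acvrl1 was not tested. Tgfbi, a TGF-beta-induced matrix protein also made by macrophages (chromosome 13 from 56757336 to 56787375), was at 8.67, 13.3 and 3.95 CPM in control and 82.4, 140 and 99.2 CPM in inflamed libraries (log2 fold change 3.64 with an SE of 0.485, adjusted p = 3.9e-04). Tgfbi was highest in inflamed replicate 2. Beside these genes, 15 of 17 tested macrophage markers rose and 1 fell in the same libraries, where 20.7% and 19.0% of all genes did. The part of macrophages in the changes was not tested.

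The basement membrane genes went different ways. Lamc1, the laminin gamma-1 chain, was at 22.0, 26.0 and 22.7 CPM in control and 34.7, 41.4 and 32.3 CPM in inflamed libraries (log2 fold change 0.62 with an SE of 0.193, adjusted p = 0.0261). Col4a1 fell from 58.6, 84.35 and 57.1 CPM to 29.8, 8.07 and 33.5 CPM (log2 fold change -1.48 with an SE of 0.533, adjusted p = 0.0476). Col4a2, its partner chain, had 32.9, 53.2 and 37.4 CPM in control and 38.4, 10.45 and 27.8 CPM in inflamed libraries and did not pass (adjusted p = 0.263, log2 fold change -0.69). The 2 genes lie head to head and overlap at their ends on opposite strands. The adjusted p of Lamc1 was 0.119 without control replicate 1, 0.125 without control replicate 3, 0.0524 without inflamed replicate 1 and 0.0845 without inflamed replicate 2. That of Col4a1 was 0.0746, 0.128 and 0.0805 without control replicates 1, 2 and 3, 0.0681 and 0.0837 without inflamed replicates 1 and 2, and 0.053 without particle replicate 3. Col18a1, the source of endostatin, was at 19.9, 38.2 and 35.3 CPM in control and 78.7, 7.34 and 76.1 CPM in inflamed libraries and was not called (log2 fold change 0.80, adjusted p = 0.381). Without inflamed replicate 2 it was called higher (adjusted p = 0.0145). Lamb1, the laminin beta-1 chain, was at 4.21 ± 2.98 against 4.25 ± 2.64 CPM (adjusted p = 0.983).

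Interstitial collagens had lower means in inflamed islets with wide spread between libraries. Col1a1, a chain of collagen I, the main fibrillar collagen, was at 13.1, 73.4 and 40 CPM in control, 16.0, 0.321 and 7.21 CPM in inflamed and 3.64, 24.6 and 0.872 CPM in particle libraries (log2 fold change under cytokines -2.43 with an SE of 1.46, adjusted p = 0.223). Col3a1, collagen III of soft tissue, was at 13.6, 86.6 and 26.7 CPM in control and 7.95, 0.504 and 3.60 CPM in inflamed libraries, without overlap but not called (log2 fold change -3.40 with an SE of 1.34, adjusted p = 0.0785). The adjusted p of Col3a1 was 0.0381 without particle replicate 2 and 0.0468 without particle replicate 3. It was 0.0221 with DESeq2, 0.0293 in a fit of the 2 groups alone, and 0.0266 and 0.0278 with limma-trend on log2(FPKM + 1) and log2(FPKM + 0.1). Col1a2, Col5a1 and Col5a2 were not called, with log2 fold changes of -2.57, -1.13 and -0.39. Col1a2 had an adjusted p of 0.048 with limma-voom and of 0.0459 both in a fit of the 2 groups alone and with limma-trend on log2(FPKM + 1). All 5 fibrillar chains had log2 fold changes below 0, and inflamed replicate 2 was far below its group for each, with 2.98 CPM summed over the 5 chains against 66.35 and 30.7 CPM in inflamed replicates 1 and 3. Without control replicate 2, the log2 fold changes of Col1a1, Col1a2, Col3a1, Col5a1 and Col5a2 were -1.80, -1.79, -2.37, -0.50 and 0.32, and without inflamed replicate 2 they were -1.87, -2.08, -2.89, -0.63 and 0.16. None of the 5 was called without either library, and Col5a2 changed sign.

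The chains of collagen VI, a beaded-filament collagen around cells, lay lower in every inflamed than in every control library. Col6a2 fell from 12.1, 28.6 and 17.4 CPM to 3.72, 1.28 and 3.96 CPM (log2 fold change -2.69 with an SE of 0.808, adjusted p = 0.0242). Col6a3 fell from 11.0, 42.5 and 19.6 CPM to 5.77, 0.413 and 3.23 CPM (log2 fold change -2.95 with an SE of 1.04, adjusted p = 0.049). Col6a1 did not pass, with 13.1, 34.2 and 21.4 CPM in control and 11.1, 0.504 and 10.55 CPM in inflamed libraries (adjusted p = 0.218, log2 fold change -1.63). These calls rest on few libraries. The adjusted p of Col6a2 was 0.0691 and 0.0532 without control replicates 2 and 3 and 0.0511, 0.0743 and 0.0513 without inflamed replicates 1, 2 and 3. That of Col6a3 was 0.059, 0.123 and 0.093 without control replicates 1, 2 and 3, 0.0851 and 0.127 without inflamed replicates 2 and 3, and 0.0651 without particle replicate 1. Loxl2, a lysyl oxidase-like enzyme that crosslinks collagen IV, fell from 21.1, 37.1 and 28.2 CPM to 7.44, 4.22 and 11.9 CPM (log2 fold change -1.86 with an SE of 0.469, adjusted p = 0.00967) and stayed called whichever library was left out. Lox, the founding lysyl oxidase, had 0.0459 to 1.56 CPM in these libraries and was not called (adjusted p = 0.853). Beside the lower collagens, 5 of 14 tested stellate, pericyte and fibroblast markers fell and none rose, against 19.0% of all genes called lower. The other 9 were not called, and 2 of the 14 had log2 fold changes above 0. Rgs5, a pericyte marker, fell from 7.27, 15.4 and 11.2 CPM to 1.07, 0.596 and 0 CPM. Myh11, of the same list, was at 2.15, 2.30 and 1.08 CPM in control and higher at 2.33, 3.12 and 5.03 CPM in inflamed libraries. The part of these cells in the collagen values was not tested.

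**Figure D4:**
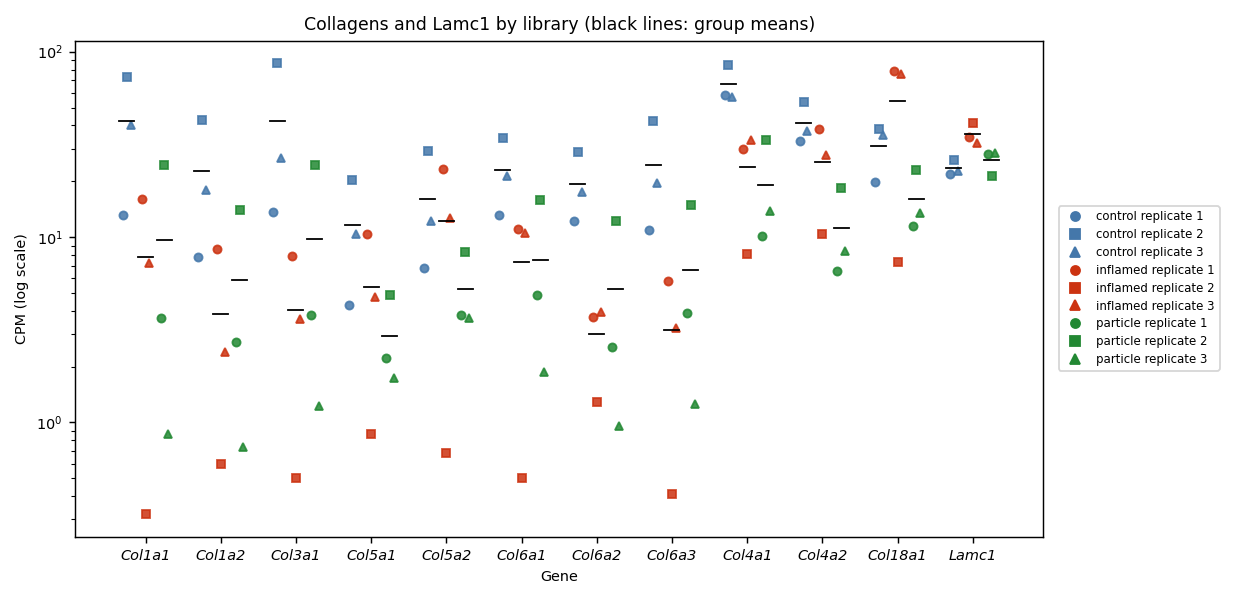
CPM on a log axis for the collagen chains and Lamc1, with 1 point per library and the group mean as a black line. Inflamed replicate 2 (red squares) is the lowest of all libraries for the 5 fibrillar chains, at 0.321 CPM for Col1a1, and the highest inflamed library for Lamc1, at 41.4 CPM.

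The remaining glycoproteins were not called. Fn1, fibronectin, was at 20.7 ± 17.85 CPM in control and 10.6 ± 11.6 CPM in inflamed islets (adjusted p = 0.47). Sparc, a collagen-binding protein of stroma and endothelium, was at 54.6 ± 27.8 against 37.7 ± 23.1 CPM (adjusted p = 0.534). Postn, periostin, was at 1.78, 15.3 and 6.53 CPM in control and 11.1, 0.963 and 15.9 CPM in inflamed libraries (adjusted p = 0.853). Tnc, tenascin-C, and Thbs1, thrombospondin-1, had log2 fold changes of -0.70 and -0.24 (adjusted p = 0.566 and 0.85). For each of these 5 genes the highest control was replicate 2 and the lowest inflamed library was replicate 2. The standard errors of their log2 fold changes were 0.639 to 1.0. Without control replicate 2, the log2 fold changes of Fn1, Sparc, Postn, Tnc and Thbs1 were -0.08, -0.08, 1.13, 1.30 and 0.40, and without inflamed replicate 2 they were -0.47, -0.11, 0.78, -0.27 and 0.21. None was called without either library, and the sign of Tnc and Thbs1 depended on them.

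Other genes of the same pathways were counted from 8 lists. Of 20 tested podosome and focal adhesion genes, 10 rose and 1 fell (median log2 fold change 0.73). Zyx, a focal adhesion protein, rose from 20.2, 16.0 and 16.4 CPM to 186, 127 and 203 CPM (log2 fold change 3.29, adjusted p = 1.01e-05), Fermt3, an integrin activator of blood cells, from 6.83 ± 0.325 to 23.1 ± 6.65 CPM, and Src, a kinase that drives podosome assembly, from 51.0 ± 9.03 to 125 ± 37.9 CPM. Of 23 tested proteases and inhibitors, 6 rose and 2 fell, among them the sheddases Adam8 (log2 fold change 3.41, adjusted p = 1.35e-05) and Adam17 (1.91, adjusted p = 2.52e-04). Of 14 plasminogen and coagulation genes 5 rose and 1 fell. The risers included Procr, the endothelial protein C receptor, and Anxa2 and S100a10, which together form a plasminogen receptor, with log2 fold changes of 5.24, 2.38 and 1.54. Of 14 other integrins 5 rose and 2 fell, with Itgb7 and Itgb6 at log2 fold changes of 6.63 and 4.24 and Itga4 at -1.70. Itgb7 was at only 0.0413, 0.0460 and 0.0359 CPM in control and 2.37, 3.26 and 7.80 CPM in inflamed libraries. Itgb6 was at 0.0826, 0.414 and 0.144 CPM against 3.07, 1.61 and 7.36 CPM. With controls so low, the size of these 2 fold changes is uncertain. These counts stand beside the 20.7% and 19.0% of all tested genes called higher and lower.

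Lists of matrix structure and TGF-beta signalling were mixed. Of 12 tested basement membrane genes 4 rose and 3 fell. Lama3, an epithelial laminin alpha chain, rose from 0.0826, 0.828 and 0.287 CPM to 26.0, 27.9 and 28.2 CPM (log2 fold change 6.12 with an SE of 0.596, adjusted p = 4.36e-05). Npnt, the integrin ligand nephronectin, fell from 34.1 ± 8.26 to 4.13 ± 0.719 CPM. The inflamed libraries of Lama3 lay close together, whereas those of the fibrillar collagens were spread widely. Of 13 genes of collagen processing 4 rose and 3 fell. Tgm2, the matrix crosslinker transglutaminase 2, rose (log2 fold change 3.14, adjusted p = 5.97e-05), while P3h1, a prolyl hydroxylase of collagen, and Bmp1, which removes procollagen propeptides, fell (-1.68 and -2.13). Of 19 other collagens and glycoproteins 2 rose and 4 fell, among them Emilin1, an elastic fibre protein, from 219 ± 49.6 to 24.6 ± 4.81 CPM and Col16a1, a fibril-associated collagen, from 16.15 ± 3.62 to 3.64 ± 1.008 CPM. Ecm1, extracellular matrix protein 1, rose from 8.32 ± 0.7 to 36.96 ± 21.4 CPM. Of 26 TGF-beta and BMP genes 7 rose and 5 fell. The receptor Tgfbr1 fell from 30.5 ± 2.77 to 14.2 ± 0.770 CPM, and Ltbp3, which stores latent TGF-beta in the matrix, fell, with a log2 fold change of -2.44, while the SMAD corepressor Skil rose with one of 2.13.

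To measure what the particles changed under cytokines, particle islets were set against inflamed islets. No member was called among 39, against a background of 0% of 17276 tested genes, so no single change passed the test. Most members nonetheless had lower values in particle islets, and those with the smallest p were Sh3pxd2b, Timp2, Acvrl1, Itga5, Tgfb1 and Mmp14. At an unadjusted p under 0.05, 16 members were lower and 0 higher, where 15.1% of all tested genes passed in either direction, 948 lower and 1655 higher. In 12 members all particle libraries lay below all inflamed libraries, and in 0 above, against 6.82% and 8.87% of all genes. The median log2 fold change of the members was -1.22 and that of all tested genes 0.04. As the members were chosen with earlier results of these data known, these shares do not test the set against the background. This comparison shares the inflamed libraries with the previous one, so values of both are given side by side and not correlated.

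Sh3pxd2b had the smallest p of the members. Its particle libraries, at 6.25, 4.98 and 7.72 CPM, lay far below the inflamed libraries at 21.8 to 34.6 CPM (log2 fold change -2.15 with an SE of 0.283, unadjusted p = 9.79e-06, adjusted p = 0.0638) and overlapped the controls at 3.47 to 5.66 CPM. Timp2 was at 9.35, 13.9 and 14.65 CPM in particle libraries, below inflamed and control libraries alike (log2 fold change against inflamed -1.46 with an SE of 0.217, adjusted p = 0.068). Acvrl1 was at 8.22, 5.14 and 5.23 CPM in particle against 16.8 to 29.5 CPM in inflamed libraries (log2 fold change -1.96 with an SE of 0.311, adjusted p = 0.068). Itga5 was at 6.79, 5.71 and 7.93 CPM against 16.5 to 31.1 CPM (log2 fold change -1.85 with an SE of 0.296, adjusted p = 0.068). In these 4 genes the particle libraries lay close together, with standard deviations of 1.11 to 2.88 CPM.

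Tgfb1 was at 9.55, 16.0 and 15.8 CPM in particle libraries (log2 fold change against inflamed -1.64 with an SE of 0.299, adjusted p = 0.112) and Mmp14 at 20.6, 16.3 and 23.2 CPM (-1.73 with an SE of 0.321, adjusted p = 0.112). The means of Mmp14 were 20.06 ± 3.49 CPM in particle and 20.07 ± 8.78 CPM in control islets, against 66.45 ± 14.6 CPM in inflamed islets. Plau, Mmp2, Tgfbi and Vim were also below every inflamed library in all particle libraries, with log2 fold changes of -1.57, -2.82, -1.91 and -1.58 and adjusted p of 0.121, 0.121, 0.122 and 0.154. Lamc1 and Timp3 completed the 12 members without overlap, at adjusted p of 0.275 and 0.568. Mmp3, Mmp10 and Mmp13 had log2 fold changes of -2.07, -1.71 and -1.59 with standard errors of 0.906 to 1.10, and their groups overlapped. The highest particle library of each, replicate 3, was above the lowest inflamed library, replicate 2. Itgav, at 150.5, 84.7 and 234 CPM in particle libraries, and Itgb1, at 112, 93.2 and 138 CPM, overlapped the inflamed libraries, with log2 fold changes of -0.56 and -0.29.

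**Figure D5:**
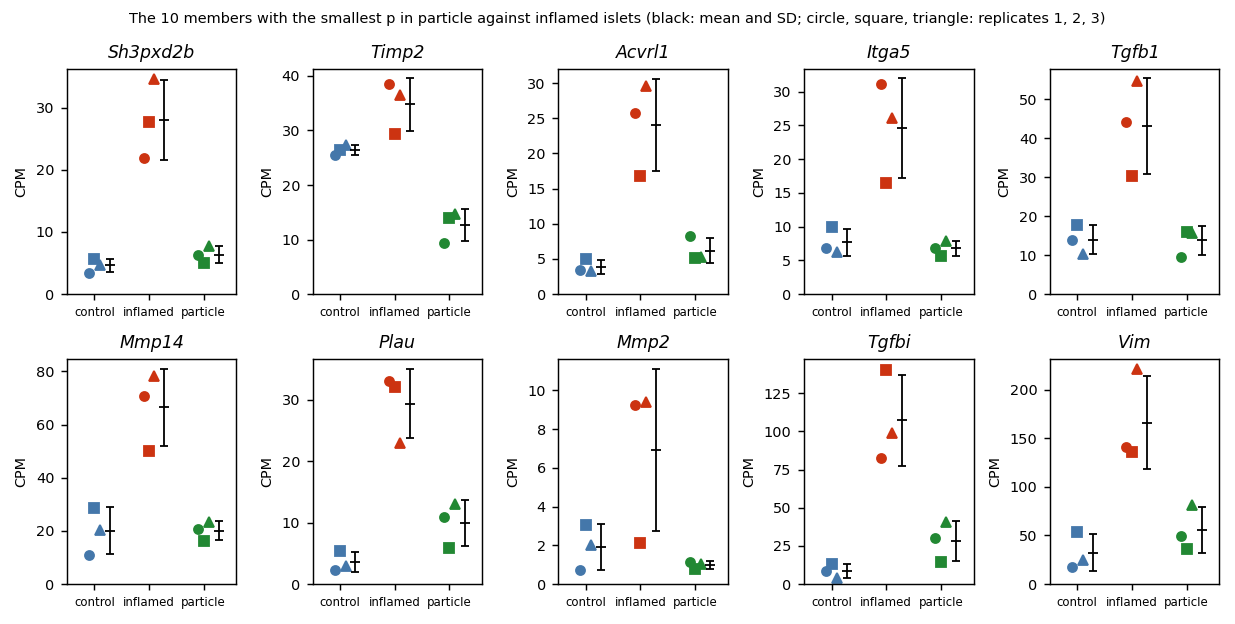
CPM by library, on linear axes from 0, for the 10 members with the smallest p in particle against inflamed islets, with the mean and SD in black. In all 10 the particle libraries lie below the inflamed libraries, as for Sh3pxd2b at 4.98 to 7.72 against 21.8 to 34.6 CPM, and no gene passed the adjusted threshold.

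The count of called members in this comparison depended on the procedure and on 1 library. DESeq2 called 10 members lower (Sh3pxd2b, Timp2, Acvrl1, Itga5, Tgfb1, Mmp14, Plau, Mmp2, Tgfbi and Vim) among 289 genes lower and 527 higher, and limma-voom 3 (Sh3pxd2b, Timp2 and Acvrl1) among 14 lower and 1 higher. Without particle replicate 3, 9 members were called lower, namely the same as with DESeq2 except Mmp2, among 306 genes lower and 636 higher. With each of the other 8 libraries left out the count was 0. Macrophage markers moved with these genes: 16 of 17 tested markers were lower at an unadjusted p under 0.05 and 0 were called, with sums of 445 to 728 CPM in particle and 1350 to 1540 CPM in inflamed libraries. The part of macrophages in the lower values was not tested. Collagens varied more between libraries. Col1a1, Col1a2, Col3a1 and the collagen VI chains had log2 fold changes of 0.03 to 1.29 with standard errors of 0.777 to 1.40, while those of Col5a1 and Col5a2 were -0.86 and -1.22. Across the 20 alternatives the lowest values were -1.80 for Col1a1, -1.15 for Col1a2 and -0.68 for Col3a1. Those of Col6a1, Col6a2 and Col6a3 were -1.14, -0.78 and -0.28, so the sign of each varied. In this comparison the sign varied for 10 of the 39 tested members. The highest particle library of all these collagens was replicate 2. That library had the highest stellate and endothelial marker sums of its group at 64.7 and 41.1 CPM, and the highest beta cell and acinar sums too.

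Other pathway genes were likewise not called, since no gene was. At an unadjusted p under 0.05, where 948 of 17276 genes were lower and 1655 higher, the 8 lists differed. Of 20 podosome and focal adhesion genes 8 were lower and 0 higher, and of 14 other integrins 4 and 0. Of 23 proteases and inhibitors 6 were lower and 1 higher, of 12 basement membrane genes 6 and 1, of 26 TGF-beta and BMP genes 6 and 1, and of 14 plasminogen and coagulation genes 5 and 2. Of 19 other collagens and glycoproteins 2 were lower and 2 higher, and of 13 genes of collagen processing 1 and 1. Zyx was at 47.6, 63.6 and 76.1 CPM in particle libraries against 127 to 203 CPM in inflamed libraries (log2 fold change -1.46, adjusted p = 0.0707). Tgm2 was at 38.7, 19.2 and 28.6 CPM against 73.9 to 127 CPM (log2 fold change -1.75, adjusted p = 0.0879). The receptor Tgfbr1 had the opposite order, with 21.2, 20.8 and 21.75 CPM against 13.3 to 14.8 CPM (log2 fold change 0.58, unadjusted p = 0.00622, adjusted p = 0.174).

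Particle islets were also compared with control islets, to place cytokines with particles against no treatment. Of the 39 members 7 were higher and 4 lower, against a background of 11.4% and 5.92% of all tested genes (1961 higher and 1022 lower, or 3193 and 597 with library totals without TMM factors). The members higher became 3 without control replicate 1 or 3 and 4 without particle replicate 1 or 3. The members lower became 2 without control replicate 1 or inflamed replicate 1, 1 without control replicate 2 or 3 or particle replicate 1 or 3, and 7 without particle replicate 2. The 7 were Tgfbi, Mmp3, Mmp10, Mmp13, Plau, Plaur and Itgav, and the 4 were Timp2, Col4a1, Col4a2 and Loxl2. The control libraries are shared with the first comparison. Mmp3 had a log2 fold change of 9.48 (standard error 1.56, adjusted p = 0.00573) and a pooled ratio of 782 with a counting interval of 267 to 3800. Plaur had a log2 fold change of 2.73 (standard error 0.472, adjusted p = 0.00352) and Itgav one of 1.66 (SE 0.339, adjusted p = 0.00894). Timp2 was lower in every particle library, at 12.65 ± 2.88 against 26.4 ± 0.911 CPM (log2 fold change -1.06 with an SE of 0.215, adjusted p = 0.00865). These 3 calls, of Plaur, Itgav and Timp2, held under all 20 alternatives, and that of Mmp3 under all but limma-voom (adjusted p = 0.345).

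The other 7 calls against control changed when a single library was left out. Those of Tgfbi (log2 fold change 1.72, adjusted p = 0.0274) and Plau (1.46, adjusted p = 0.0233) were lost when replicate 1 or 3 of either the control or the particle group was left out, at adjusted p up to 0.109 and 0.105. Those of Mmp10 (6.19, adjusted p = 0.0301) and Mmp13 (5.08, adjusted p = 0.0211) were lost without any 1 of the 3 controls, and that of Mmp10 also without particle replicate 1 or 3, at adjusted p up to 0.14 and 0.113. Those of Col4a1 (-1.80, adjusted p = 0.0449), Col4a2 (-1.88, adjusted p = 0.0254) and Loxl2 (-1.56, adjusted p = 0.0419) were lost when control replicate 2 or 3 or else particle replicate 1 or 3 was left out, and those of Col4a1 and Loxl2 also without control replicate 1 or inflamed replicate 1, at adjusted p up to 0.159, 0.103 and 0.13. Without particle replicate 2, Col6a2 (adjusted p = 0.00271), Col6a3 (0.0397) and Sparc (0.0254) were lower as well. Sh3pxd2b, Itga5, Tgfb1 and Mmp14, which had risen under cytokines, were not called against control. Their log2 fold changes were 0.45, -0.17, -0.02 and 0.00, with standard errors of 0.278 to 0.314. Acvrl1, Vim, Timp1, Mmp2 and Lamc1 had risen too and were likewise not called, at 0.67, 0.79, 1.12, -0.96 and 0.14. All particle libraries of Acvrl1 lay above all controls.

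Levels of different genes were compared on the deposited FPKM values, which are divided by gene length. In control islets the highest mean levels of the set were those of Itgb1 (24.3 ± 2.91 FPKM, SD, n = 3), Sparc (14.6 ± 7.67) and Col4a1 (9.04 ± 2.21). In inflamed islets they were those of Mmp3 (74.1 ± 51.1 FPKM), Vim (34.2 ± 10.05), Itgb1 (33.5 ± 4.49), Mmp13 (31.1 ± 18.5) and Tgfbi (27.8 ± 7.98), whose spreads overlap. In particle islets Itgb1 (27.05 ± 5.23 FPKM) and Mmp3 (17.5 ± 15.01) led. Mmp3, first by its mean under cytokines, was thus among the lowest genes of the set in control islets, at 0.0251 ± 0.0263 FPKM. In inflamed replicate 2 Mmp3 was at 19.5 FPKM, below Tgfbi (36.6), Itgb1 (28.3) and Vim (28.2).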

How the data were processed

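RNA sequencing of 9 islet libraries was analysed from 2 deposited tables, of whole-number read counts per gene and of FPKM values. The build GRCm39 and the tools HTSeq and DESeq2 are named, per the submitters' processing notes; their versions, the annotation and the strand setting are not given in the sources used here. In each library the deposited FPKM values were proportional to count over gene length. Groups came from the titles, per the labels; the control columns, named without a group word, were the set left after the others matched. Whether replicates were separate animals is not stated, so p-values measure only the spread between these samples. The members and gene lists were chosen with earlier results of these data known.

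Counts as deposited were fitted with edgeR 4.0.16 in R 4.3.3 (filterByExpr with a smallest count of 10, TMM factors, robust quasi-likelihood, all 9 libraries), and p-values were adjusted by Benjamini-Hochberg over 17276 genes. Standard errors are the absolute log2 fold change divided by the square root of F. CPM use TMM-scaled totals; counting intervals (95%, exact binomial) cover counting error only. Replicate pairs differed by 42.7 to 198 chi-square per degree of freedom, so none was counted as a repeat. All 40 members are described; of each of 8 pathway lists, up to 3 called genes with the smallest adjusted p under cytokines are named. Of the genes this rule picked, 1 is not reported here. All 253 listed symbols were found and 223 tested. Other marker lists were, for control, inflamed and particle islets, duct (747 to 913, 1130 to 2210 and 1260 to 1300 CPM summed), Schwann (20.9 to 38.1, 16.5 to 122 and 15.4 to 21.1 CPM) and mesothelial (33.9 to 73.4, 19.9 to 34.8 and 17.1 to 37.3 CPM). Alternatives were RLE factors, totals without TMM, scaling without the 20 most abundant and mitochondrial genes, no or a stricter filter, DESeq2 1.42.0, limma-voom (limma 3.58.1), fits of the compared groups only, a replicate block, limma-trend on log2(FPKM + 1) and log2(FPKM + 0.1), and each library left out once. In simulated counts with known changes in a small share of the genes, the test found 61%, 57% and 65% of the 4-fold changes. These were for inflamed against control (16705 genes), particle against inflamed (16665) and particle against control (16643), in that order. Of the 2-fold changes it found 9%, 6% and 5%. Far more genes were called against control, 39.6% in inflamed and 17.3% in particle islets, so the simulated recovery need not hold there.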

Additional observations from a re-analysis of the deposited data

How the results depend on the processing

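Of the members called, 11 of 20 in inflamed against control islets (Acvrl1, Itga5, Itgav, Loxl2, Mmp14, Plau, Plaur, Sh3pxd2b, Tgfb1, Tgfbi and Vim) and 3 of 11 in particle against control islets were called under all 20 alternatives, and no called log2 fold change changed sign. Without TMM factors the median of all genes moved by 0.18 and 0.27 on the log2 scale against control. Leaving out 1 library gave 13 to 17 members higher and 1 to 5 lower for inflamed against control, 0 higher and 0 to 9 lower for particle against inflamed, and 3 to 7 higher and 1 to 7 lower for particle against control. For all genes it gave 2278 to 3786 higher and 2401 to 3588 lower, 0 to 636 higher and 0 to 306 lower, and 887 to 2424 higher and 224 to 2121 lower. Without a count filter the members lower were 1, 8 and 1 in the 3 comparisons, those higher than control in particle islets 4, and all genes of particle against inflamed 120 higher and 101 lower. In particle against inflamed, DESeq2 called 10 members lower (527 genes higher, 289 lower), limma-voom 3 (1 and 14), limma-trend on log2(FPKM + 1) 2 (1 and 15) and on log2(FPKM + 0.1) 1 (5 and 9), and totals without TMM called 1 gene higher. In particle against control, limma-voom called 4 members higher, totals without TMM gave 3193 genes higher and 597 lower, and DESeq2, limma-trend on log2(FPKM + 1) and on log2(FPKM + 0.1) gave 1869, 2017 and 1635 genes lower beside 2291, 1505 and 1658 higher. Causes were not tested. No pairing of libraries by replicate number was visible (correlation of deviations -0.17 to 0.22), though such values cannot exclude one. With a replicate block, 2 members were lower in inflamed and 2 in particle islets against control, with 14 and 7 higher, and 0 were called between the treated groups. Low counts limit Mmp3 and Mmp10 in controls (3 and 6 reads in all). The controls of Itgb7 and Itgb6 were also low, at up to 0.0460 and 0.414 CPM.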
